A study of Mus musculus with 16 samples.

Results

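Chemokines and their receptors were followed in mouse kidneys, WT or lacking IL-33, at 24 h of unilateral ureteral obstruction (UUO). Members were the rows of the deposited expression table whose gene symbol begins with Ccl, Cxcl, Cx3cl, Xcl, Ccr, Cxcr, Cx3cr or Xcr followed by a number, in any mix of upper and lower case. Described here are 52 such genes of the 18132 in the table, of which 35 encode ligands and 17 encode receptors. The choice used names and no measured value. Of the 52 symbols, 49 are current RefSeq symbols and 3 are older names, namely Ccl27 (Ccl27a), Cxcl4 (platelet factor 4, Pf4) and Cxcr7 (Ackr3). Cxcl5, Ccl8 and Ccl12 had no row under these symbols in the table, and Cxcr2 is named Il8rb there and therefore lies outside the rule.

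In UUO a clip closes the ureter, and the kidney behind it is injured by the retained urine. The 4 groups were 7 WT kidneys after UUO, 5 IL-33-deficient kidneys after UUO, 2 WT controls and 2 IL-33-deficient controls, and each kidney was run on 1 Illumina MouseRef-8 v2 BeadChip array. Tissue was taken 24 h after ligation. The mutant line lacks Il33 in every cell from the germ line on, was obtained from Merck Research Laboratories and was backcrossed to the Taconic C57BL/6J BomTac strain; the labels call the WT mice C57/BL6. The mice were 8 weeks old unless otherwise stated in the methods, and the control kidneys were from untreated animals. No array came from a sham-operated animal, and the UUO mice had anaesthesia, a flank incision and buprenorphine. Effects of surgery and drugs therefore cannot be told apart from those of obstruction. The UUO arrays carry a set label, set 1 with 3 WT arrays and 2 IL-33-deficient ones and set 2 with 4 and 3. The labels give no set for the controls, so a difference between sets and the response to UUO cannot be told apart fully. Arrays are named by the number in their label.

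Chemokines are small secreted proteins that guide leukocytes. They bind G protein-coupled receptors on the leukocyte, and the cell moves along the gradient toward the source. CXC chemokines with the motif ELR before the first cysteines mainly attract neutrophils through CXCR2, CC chemokines mainly attract monocytes, eosinophils and lymphocytes, and homeostatic chemokines such as CXCL12 and CCL21 position cells in unchallenged tissue. In an obstructed kidney, injured tubular cells, interstitial cells and incoming macrophages are known sources of chemokines. Whole kidney was measured, so fewer cells of a type and less RNA per cell cannot be told apart.

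The values are linear intensities as deposited, quantile-normalized and taken to log2. A gene was called at an adjusted p under 0.05, with limma and Benjamini-Hochberg adjustment over all 18132 genes. Deposited intensities began at 95.5 and the array medians lay between 132 and 133, so background makes up much of the value of dim genes and compresses their fold changes. Il33 lay between 6.80 and 7.02 on the log2 scale on all 7 IL-33-deficient arrays, at 7.62 and 8.02 in WT controls and between 8.39 and 9.57 in WT kidneys after UUO. Havcr1, a marker of tubular injury, lay between 7.07 and 7.37 in controls and between 12.84 and 13.95 after UUO, except on WT array 3820, where it was 10.42. Markers of kidney tubules were bright in controls, with summed intensities of 33760 to 37310 for 4 proximal tubule genes. After UUO the sums were 20960 to 35840 in WT and 15350 to 26020 in IL-33-deficient kidneys, where 2 of the 4 genes fell.

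After UUO, 11 of the 52 genes rose in WT kidneys (21.2%, against 6.97% of all genes tested) and 4 fell (7.69%, against 8.22% of all genes). In IL-33-deficient kidneys 13 rose (25%, against 10.6%) and 6 fell (11.5%, against 11.2%). The share that rose was therefore above the background in both genotypes, and the share that fell was close to it. The median log2 fold change over the 52 genes was 0.03 in WT and 0.00 in IL-33-deficient kidneys, against 0.00 over all genes in both. Calls were made in both genotypes for 13 genes, in WT kidneys alone for Ccl6 and Ccl21a, and in IL-33-deficient kidneys alone for 6 genes (Ccl2, Ccl3, Ccl4, Ccl28, Cxcl15 and Cxcr7). The comparisons of the genotypes themselves are given further on and called none of the 52 genes. All 15 calls in WT kidneys were ligands, and in IL-33-deficient kidneys 18 were ligands and 1 was a receptor.

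**Figure D1:**
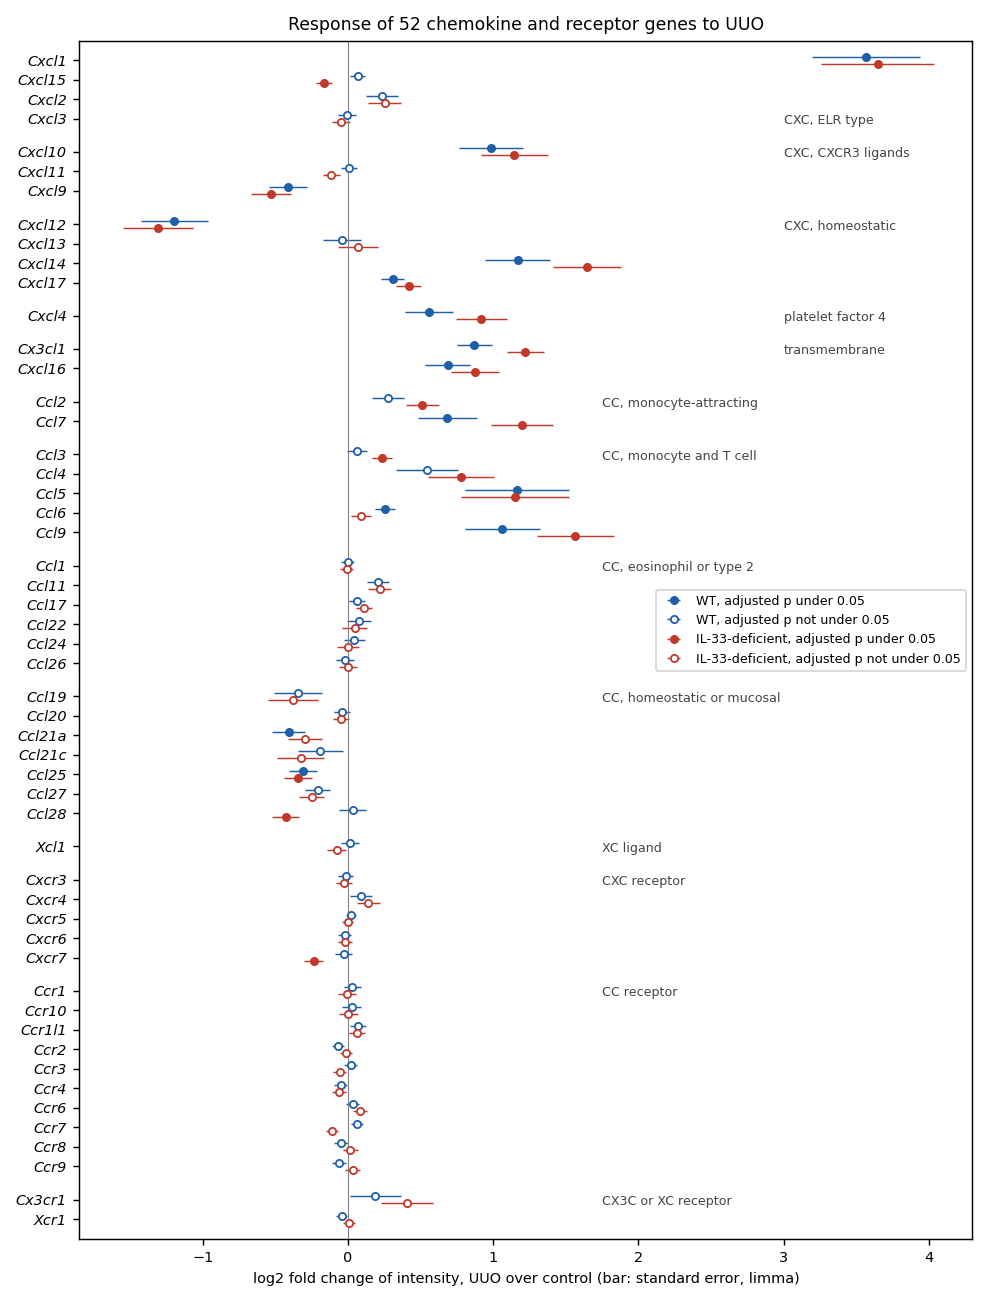
Log2 fold change of intensity after UUO over control for each of the 52 genes, with WT in blue and IL-33-deficient in red, bars for the standard error from limma, and filled points for an adjusted p under 0.05. Genes are grouped by class; Cxcl1 stands at 3.57 and 3.65, Cxcl12 at -1.20 and -1.31, and most receptors lie close to 0.

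The calls in WT kidneys rested on 2 controls. Without control 3811 the count fell from 15 to 4 (Cxcl1, Cxcl12, Cxcl14 and Cx3cl1), and without control 3812 it was 3 (Cxcl1, Cxcl14 and Cx3cl1), with the same direction of all 15 throughout. Without IL-33-deficient control 3813 the count of 19 was 12. Ccl2, Ccl7, Ccl9, Cx3cl1, Cxcl1, Cxcl4, Cxcl10, Cxcl12, Cxcl14, Cxcl16 and Cxcl17 kept their call in IL-33-deficient kidneys whichever of its 7 arrays was left out. With the UUO arrays of set 1 alone 1 gene was called in WT (Cxcl1) and 11 in IL-33-deficient kidneys, and with set 2 alone 16 and 23. Of all genes, set 1 alone called 1.04% in WT and 12.5% in IL-33-deficient kidneys and set 2 alone 23.4% and 24.6%, against 15.2% and 21.8% with all arrays. Without controls 3811, 3812 and 3813 these shares were 5.8%, 4.46% and 12.6%. In exact two-sided permutation tests, the called members reached the smallest p that the arrays allow, 0.0278 over 36 splits in WT and 0.0476 over 21 splits in IL-33-deficient kidneys, except Ccl5, Cxcl4 and Cxcl9 in WT (p = 0.0556 each) and Ccl3 and Ccl25 in IL-33-deficient kidneys (p = 0.0952 each).

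Cxcl1, the main neutrophil attractant of this class in mice, showed the largest rise of the 52 genes in both genotypes. Its log2 intensity was 7.51 and 7.28 in WT controls and 7.28 and 7.13 in IL-33-deficient controls. After UUO it ranged from 10.04 through a median of 10.80 to 11.94 in the 7 WT kidneys, and was 10.90, 11.13, 11.20, 10.76 and 10.27 in the 5 IL-33-deficient kidneys. Every obstructed kidney lay above every control, and the genotypes overlapped. The rise was 11.8-fold in WT (log2 3.57, standard error 0.37, adjusted p = 5.1e-05 from limma) and 12.5-fold in IL-33-deficient kidneys (log2 3.65, standard error 0.39, adjusted p = 2.3e-05). With 0.9 of the lowest intensity of the table subtracted as background, the same rises were 23.2-fold and 28.6-fold.

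No other gene of the ELR class was called higher. Cxcl2, which binds the same receptor, had a median of 7.09 in WT kidneys after UUO, all of which lay above the controls at 6.87 and 6.92. Its log2 fold changes of 0.24 in WT and 0.25 in IL-33-deficient kidneys were not called (adjusted p = 0.19 and 0.15), and with background subtracted they were 0.69 and 0.72 (adjusted p = 0.11 and 0.084). Cxcl3 lay between 6.65 and 6.95 on all arrays, where a response may not be measurable. Cxcl15 (lungkine) stayed below the median of all values of the table, a log2 of 7.05, on every array, and was called lower in IL-33-deficient kidneys, at -0.17 (adjusted p = 0.045); without control 3813, which was at 7.03 against 6.79 for control 3814, this was -0.05, and the call was also lost without any single one of the UUO kidneys. Il8rb, the receptor CXCR2, lay between 6.76 and 6.94 on all arrays.

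Cxcl1, Cxcl2 and Cxcl3 are neighbours on mouse chromosome 5, and the 200 bases before the start of each gene are shown because the same NF-kappaB site stands in all 3, of which Cxcl1 alone was called. NF-kappaB is a transcription factor that drives inflammatory genes after injury. The sequences are from RefSeq in the GRCm38.p6 build, on the plus strand, at chr5:90891045-90891244 for Cxcl1, chr5:90903699-90903898 for Cxcl2 and chr5:90785901-90786100 for Cxcl3, each written 5′ to 3′ with matches to the NF-kappaB consensus in capitals.
Cxcl1: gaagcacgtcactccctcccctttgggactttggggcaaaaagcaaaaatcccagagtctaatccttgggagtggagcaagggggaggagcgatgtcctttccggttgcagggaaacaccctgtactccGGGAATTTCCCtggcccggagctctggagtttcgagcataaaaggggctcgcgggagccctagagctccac
Cxcl2: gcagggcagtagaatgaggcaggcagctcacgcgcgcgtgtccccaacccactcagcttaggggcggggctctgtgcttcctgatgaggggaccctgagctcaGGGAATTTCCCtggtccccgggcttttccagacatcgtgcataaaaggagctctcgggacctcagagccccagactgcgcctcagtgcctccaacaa
Cxcl3: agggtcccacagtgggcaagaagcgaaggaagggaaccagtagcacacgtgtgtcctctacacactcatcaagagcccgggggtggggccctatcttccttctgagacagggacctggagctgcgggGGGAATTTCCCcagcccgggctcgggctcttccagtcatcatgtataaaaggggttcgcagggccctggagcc
The run GGGAATTTCCC is in all 3 windows. With background subtracted, the fold change in WT kidneys was 23.2 for Cxcl1 and 1.61 for Cxcl2, and Cxcl3 was below the median of all values on every array. A match is a description of letters and not of binding.

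Promoter windows of 300 bases, from 250 before to 50 after the start, were found for 38 of the 52 genes (42 windows). The NF-kappaB consensus was on either strand in 26.2% of these windows and in 8.46% of the 32851 windows of all genes. It was in 3 of the 6 windows of genes that rose in both genotypes, in none of the 4 windows of genes that fell in both, and in 6 of the 18 windows of members whose brightest array was below the median of all values. The AP-1 site TGANTCA was in 19.0% of the members' windows against 7.81% of all, the GAS site TTCNNNGAA in 9.52% against 8.3%, and the TATA box TATAAA, read on the strand of the gene, in 21.4% against 8.32%. Both other sites were read on both strands, and overlaps between sites were not removed.

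The 3 ligands of CXCR3, a receptor of activated T cells and NK cells, are known as interferon-induced genes, and here they moved apart. Cxcl10 was 7.31 and 7.18 in WT controls and 7.23 and 7.13 in IL-33-deficient controls. In obstructed kidneys it ranged from 7.95 through 8.21 to 8.83 in WT kidneys and was 8.09, 7.93, 8.67, 8.74 and 8.20 in IL-33-deficient kidneys, all above the controls. It rose 1.98-fold in WT (log2 0.99, standard error 0.22, adjusted p = 0.0073) and 2.21-fold in IL-33-deficient kidneys (log2 1.14, adjusted p = 0.002). Cxcl9 fell. It was 7.49 and 7.78 in WT controls against a range of 7.04 through 7.13 to 7.71 after UUO, and 7.72 and 7.90 in IL-33-deficient controls against 7.28, 7.34, 7.27, 7.29 and 7.21. Its log2 fold changes were -0.41 (adjusted p = 0.046) and -0.53 (adjusted p = 0.01). WT array 3819 overlapped the WT controls for Cxcl9, the WT call was lost when any array other than 3819 was left out (adjusted p up to 0.46), and the other call was lost without IL-33-deficient control 3814. Cxcl11 lay between 6.75 and 7.01 on all arrays. The receptor Cxcr3 lay between 6.80 and 7.02. None of 9 T cell markers was called in either genotype, and their summed intensity was 1153 to 1160 in WT controls and 1125 to 1269 in WT kidneys after UUO, and 1167 to 1185 and 1118 to 1207 in IL-33-deficient kidneys.

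The 200 bases before Cxcl10 are shown as those of a called gene with separate NF-kappaB matches, from chr5:92348890-92349089 on the minus strand of GRCm38.p6, written in the direction of the gene.
Cxcl10: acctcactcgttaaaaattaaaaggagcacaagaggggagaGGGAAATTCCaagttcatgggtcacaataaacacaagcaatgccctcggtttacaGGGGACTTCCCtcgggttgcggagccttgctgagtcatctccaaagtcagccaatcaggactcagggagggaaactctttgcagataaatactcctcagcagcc

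Among the homeostatic CXC ligands, Cxcl12 fell and Cxcl14 rose. Cxcl12, which holds CXCR4-bearing cells in place, was 9.28 and 9.45 in WT controls and 9.31 and 9.09 in IL-33-deficient controls. After UUO its values ran from 7.73 through 7.96 to 8.95 in WT kidneys and was 7.89, 8.01, 7.86, 7.94 and 7.75 in IL-33-deficient kidneys. No obstructed kidney reached a control, and the highest was WT array 3820. The fall was 2.29-fold in WT (log2 -1.20, standard error 0.23, adjusted p = 0.0029, and 0.064 without control 3812) and 2.47-fold in IL-33-deficient kidneys (log2 -1.31, standard error 0.24, adjusted p = 0.0011).

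Cxcl14, an epithelial chemokine whose receptor is not settled, was 7.95 and 8.04 in WT controls and 7.88 and 8.02 in IL-33-deficient controls. After obstruction it ranged from 8.52 through 9.28 to 9.53 in WT kidneys and was 9.73, 9.94, 9.51, 9.38 and 9.42 in IL-33-deficient kidneys. It rose 2.25-fold (log2 1.17, standard error 0.22, adjusted p = 0.0027) and 3.13-fold (log2 1.64, standard error 0.23, adjusted p = 0.00016). Cxcl17, a mucosal chemokine, rose by a log2 of 0.31 and 0.42 (adjusted p = 0.019 and 0.0022) from dim control levels of 6.85 to 6.98, and the WT call was lost without control 3811 or without control 3812. Cxcl13, which attracts B cells, was at -0.04 and 0.07 and was not called.

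The 200 bases before Cxcl12, shown as those of the gene that fell furthest, hold no NF-kappaB match and are on the plus strand at chr6:117168335-117168534.
Cxcl12: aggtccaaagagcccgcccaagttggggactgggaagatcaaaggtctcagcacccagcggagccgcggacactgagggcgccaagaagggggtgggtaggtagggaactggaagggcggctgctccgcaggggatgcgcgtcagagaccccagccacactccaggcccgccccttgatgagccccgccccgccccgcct
Their share of G and C was 68.5%, against 57.5% before Cxcl1 and 49.0% before Cxcl10. In the other windows shown it was 62.0% for Cxcl2, 61.0% for Cxcl3 and 46.5% for Ccl9. The share over all promoters was not taken.

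Cxcl4, platelet factor 4, is stored in platelets and is also made by some macrophages. It was 6.99 and 7.04 in WT controls and 7.12 and 7.04 in IL-33-deficient controls, against 7.15 through 7.58 to 7.94 in WT kidneys and 7.97, 8.32, 7.85, 8.07 and 7.78 in IL-33-deficient kidneys after UUO. It rose by a log2 of 0.56 (adjusted p = 0.035) and 0.92 (adjusted p = 0.0013). The WT call was lost without control 3811, control 3812, or UUO array 3819, 3893 or 3895. Ppbp, its neighbour and another platelet chemokine, outside the rule, rose by 0.26 in WT (adjusted p = 0.044) and was at 0.20 in IL-33-deficient kidneys (adjusted p = 0.12).

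Both transmembrane chemokines, which hold cells to a membrane and can be cut off it, rose in both genotypes. Cx3cl1, the ligand of CX3CR1, was 9.97 and 9.91 in WT controls and 9.71 and 9.98 in IL-33-deficient controls. After obstruction it spanned 10.60 through 10.78 to 11.10 in WT kidneys and was 10.98, 11.11, 11.11, 10.99 and 11.13 in IL-33-deficient kidneys. Its rise was 1.83-fold (log2 0.87, standard error 0.12, adjusted p = 0.00039) and 2.33-fold (log2 1.22, standard error 0.12, adjusted p = 1.8e-05), and the call held in both genotypes whichever array was left out. Cxcl16, the ligand of CXCR6, rose from 9.66 and 9.62 to between 9.96 and 10.77 in WT kidneys (log2 0.69, adjusted p = 0.0083) and from 9.58 and 9.89 to 10.67, 10.78, 10.65, 10.52 and 10.44 in IL-33-deficient kidneys (log2 0.88, adjusted p = 0.0012). The WT call for Cxcl16 was lost without control 3811 or control 3812. Adam10 and Adam17, proteases known to shed both, were not called in either genotype.

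**Figure D2:**
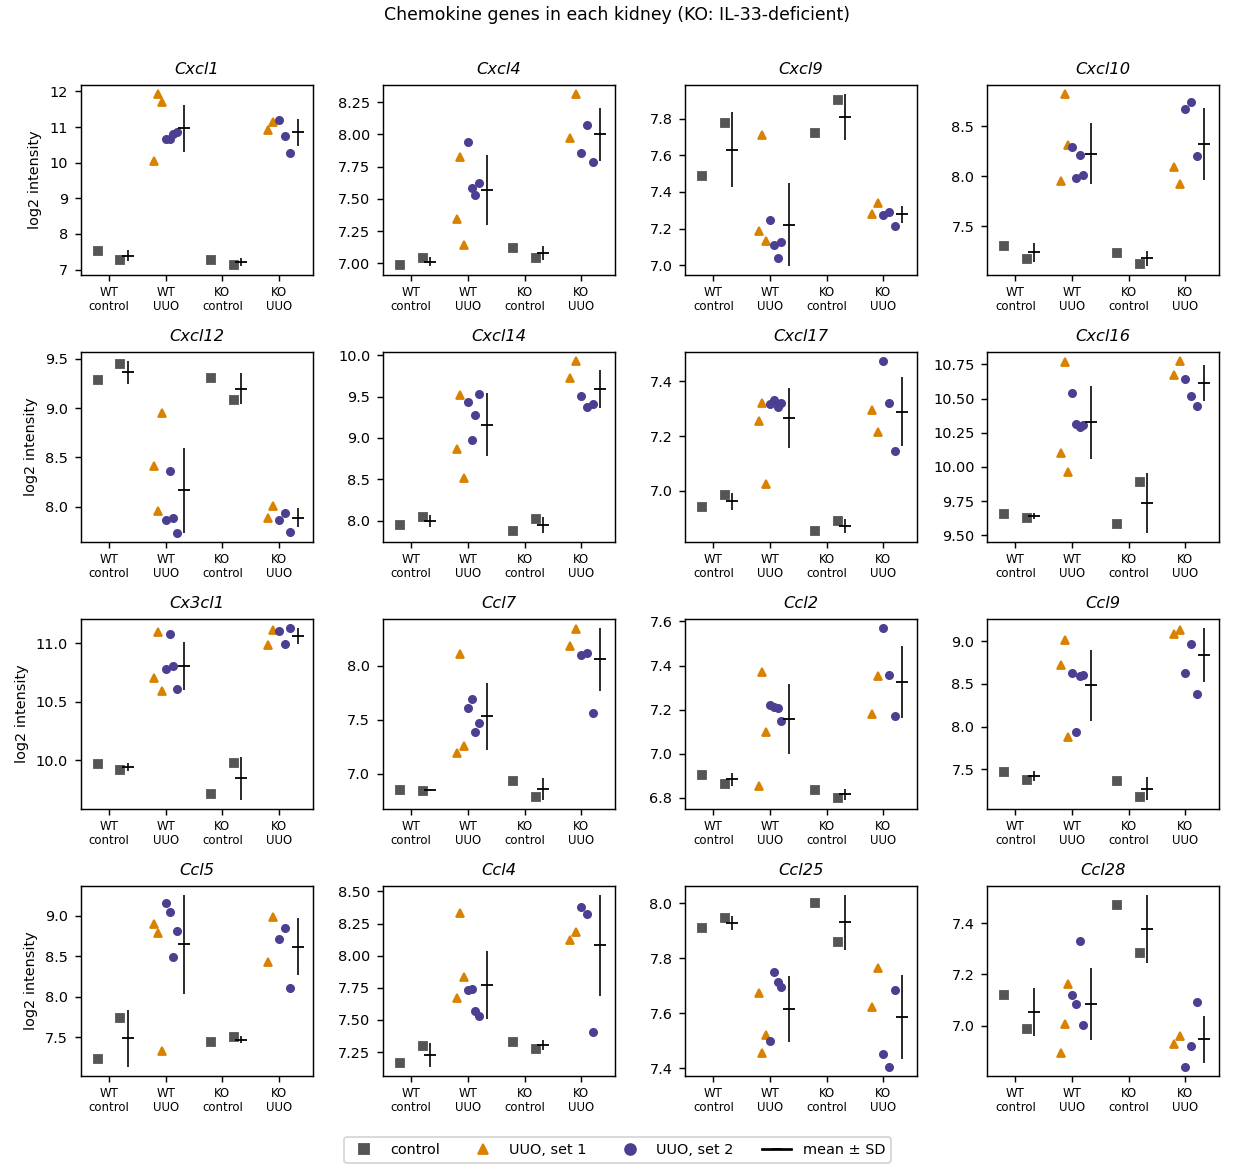
Log2 intensity of 16 chemokine genes in each kidney, with grey squares for controls, orange triangles for set 1 and purple circles for set 2 after UUO, and the mean ± SD beside each group. Cxcl1 separates from control by over 2 log2 units in every kidney, Cxcl12 is lower in every obstructed kidney, and for Ccl5 WT array 3820, at 7.33, lies among the controls.

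Ccl2 and Ccl7 attract monocytes through CCR2. Ccl7 was 6.85 and 6.84 in WT controls and 6.93 and 6.79 in IL-33-deficient controls. Once obstructed, it ranged from 7.20 through 7.47 to 8.11 in WT kidneys and was 8.18, 8.33, 8.10, 8.12 and 7.56 in IL-33-deficient kidneys. It rose 1.61-fold in WT (log2 0.68, standard error 0.20, adjusted p = 0.034) and 2.29-fold in IL-33-deficient kidneys (log2 1.20, standard error 0.21, adjusted p = 0.00083), and 3.29-fold and 5.97-fold after background subtraction. The WT call was lost without control 3811, control 3812, or UUO array 3892 or 3893. Ccl2 was 6.91 and 6.86 in WT controls and between 6.85 and 7.37 in WT kidneys after UUO (log2 0.27, adjusted p = 0.12). In IL-33-deficient kidneys it went from 6.83 and 6.80 to 7.18, 7.35, 7.57, 7.36 and 7.17 (log2 0.51, standard error 0.11, adjusted p = 0.0044). Ccr2, their receptor, lay between 6.71 and 6.85 on all arrays.

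A group of 5 CC ligands, among them the MIP proteins and RANTES, attract monocytes and T cells. Ccl9 was 7.46 and 7.38 in WT controls and 7.37 and 7.18 in IL-33-deficient controls, against 7.88 through 8.61 to 9.02 in WT kidneys and 9.08, 9.13, 8.63, 8.97 and 8.39 in IL-33-deficient kidneys after UUO. It rose 2.09-fold (log2 1.06, standard error 0.26, adjusted p = 0.011) and 2.96-fold (log2 1.57, standard error 0.27, adjusted p = 0.00065), and the WT call was lost without control 3811 or control 3812. The 200 bases before Ccl9 carry a match 35 bases before the start and are at chr11:83578637-83578836 on the minus strand.
Ccl9: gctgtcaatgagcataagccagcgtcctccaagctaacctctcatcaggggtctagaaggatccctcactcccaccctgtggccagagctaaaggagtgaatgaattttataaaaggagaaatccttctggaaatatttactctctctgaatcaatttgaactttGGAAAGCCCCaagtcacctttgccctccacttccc

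Ccl5 (RANTES) was 7.23 and 7.73 in WT controls and 7.43 and 7.50 in IL-33-deficient controls. After UUO it ranged from 7.33 through 8.81 to 9.15 in WT kidneys and was 8.43, 8.99, 8.71, 8.85 and 8.10 in IL-33-deficient kidneys. The rises were 2.24-fold (log2 1.16, standard error 0.36, adjusted p = 0.04) and 2.22-fold (log2 1.15, standard error 0.37, adjusted p = 0.038). WT array 3820 lay among the controls, and the WT call was lost when any array other than 3820 was left out (adjusted p up to 0.33), while without 3820 the adjusted p was 0.00024. In IL-33-deficient kidneys it was lost without control 3813 or 3814 or UUO array 3822, 3897 or 3898.

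Ccl4 rose in IL-33-deficient kidneys from 7.33 and 7.27 to 8.12, 8.19, 8.38, 8.33 and 7.41 (log2 0.78, standard error 0.23, adjusted p = 0.021), and the call was lost without control 3813 or 3814. In WT kidneys it went from 7.16 and 7.29 to between 7.53 and 8.33 (log2 0.54, adjusted p = 0.12). Ccl3, encoded beside Ccl4, rose by 0.23 in IL-33-deficient kidneys (adjusted p = 0.027, lost without control 3813 or 3814 or UUO array 3898) and was at 0.06 in WT kidneys. Ccl6 rose by 0.25 in WT kidneys (adjusted p = 0.017, lost without control 3811 or 3812) and was at 0.09 in IL-33-deficient kidneys, whose controls were 0.21 higher (unadjusted p = 0.024, adjusted p = 1).

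None of the 6 ligands linked to eosinophils and type 2 responses was called in either genotype. Ccl11 (eotaxin) was nearest, at 0.21 and 0.22 (adjusted p = 0.082 and 0.065), and the other 5 (Ccl1, Ccl17, Ccl22, Ccl24 and Ccl26) lay between -0.02 and 0.11. Of these, Ccl1, Ccl17 and Ccl26 were below the median of all values on every array.

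The homeostatic and mucosal CC ligands leaned downward, with medians of -0.21 in WT and -0.33 in IL-33-deficient kidneys over 7 genes. Ccl25, a thymic and gut ligand of CCR9, fell in both genotypes, from 7.91 and 7.94 to between 7.45 and 7.75 in WT kidneys (log2 -0.31, adjusted p = 0.038) and from a control mean of 7.93 to 7.62, 7.76, 7.45, 7.40 and 7.68 in IL-33-deficient kidneys (log2 -0.34, adjusted p = 0.02). The WT call was lost without control 3811 or 3812 or UUO array 3819 or 3892, and the other without control 3813. Ccl21a, a CCR7 ligand that guides dendritic cells and T cells to lymph vessels, fell by 0.41 in WT kidneys (adjusted p = 0.023, lost without control 3811 or 3812) and was at -0.30 in IL-33-deficient kidneys (adjusted p = 0.089). Ccl21c is a near-identical copy, and its values of -0.19 and -0.33 may share signal with Ccl21a. Ccl28, a mucosal ligand of CCR10, fell by 0.43 in IL-33-deficient kidneys, from 7.47 and 7.28 to 6.93, 6.96, 6.84, 6.92 and 7.09 (adjusted p = 0.0042, and 0.099 without control 3813), and was at 0.03 in WT kidneys. Ccl19, Ccl20 and Ccl27 were not called.

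Receptors changed little beside their ligands. Of the 17, 13 lay below the median of all values on every array (as did 8 of the 35 ligands), so a change in them may not be measurable on this array. Cxcr7, which binds and removes Cxcl12, fell by 0.24 in IL-33-deficient kidneys (adjusted p = 0.014, and 0.19 without control 3813) and was at -0.03 in WT kidneys. Cxcr4, the signalling receptor of Cxcl12, was at 0.09 and 0.14 while its ligand fell. Cx3cr1 was at 0.19 in WT and 0.41 in IL-33-deficient kidneys (adjusted p = 0.58 and 0.14) while Cx3cl1 rose. Ccr1 and Cxcr6, receptors of Ccl9 and of Cxcl16, lay between 6.70 and 6.97 and between 6.74 and 6.91 on all arrays.

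Of 14 measured genes of the chemokine network outside the rule, 3 were called in WT and 4 in IL-33-deficient kidneys. These counts are not far from the 15.2% and 21.8% of all genes that were called. Cklf, a chemokine-like factor, rose in both (log2 0.32 and 0.46), and Rarres2, which encodes chemerin, fell in both (-0.37 and -0.42). Mif, a ligand of CXCR2 and CXCR4, rose in IL-33-deficient kidneys by 0.40 (adjusted p = 0.0029), and Dpp4, a protease that trims Cxcl10 and Cxcl12, fell there by 0.86 (adjusted p = 0.0099); in WT they were at 0.24 and -0.59 and were not called. The decoy receptors Darc and Ccbp2 were not called. Of 15 genes of chemokine receptor signalling, 4 were called in WT and 5 in IL-33-deficient kidneys, beside the same shares of all genes. Gnai2 and Gnb1, which encode G protein subunits, and Rgs16, which ends G protein signals, rose in both genotypes (log2 0.57 to 0.97 in WT and 0.63 to 1.09 in IL-33-deficient kidneys). Arrb1, a beta-arrestin, fell by 0.10 in WT kidneys, and Grk5 and Rac2 rose by 0.17 and 0.18 in IL-33-deficient kidneys.

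Markers of several cell types changed along with the chemokines. Of all genes, 6.97% rose and 8.22% fell in WT kidneys, and 10.6% rose and 11.2% fell in IL-33-deficient kidneys. Of 16 monocyte and macrophage markers 3 rose and 1 fell in WT kidneys, and 8 rose and 1 fell in IL-33-deficient kidneys, and their summed intensity went from 3315 to 3339 in WT controls to 3810 to 7116 after UUO and from 3086 to 3189 to 5063 to 7709 in IL-33-deficient kidneys. Lyz2 and Lyzs, names of the same gene, have separate rows, and both count among the 16, among the 8 and in the sums. Cd14 rose by a log2 of 2.63 and 2.89, while Csf1r, a defining receptor of the lineage, fell by 0.41 and 0.36. Of 13 neutrophil markers 2 rose in WT and 3 in IL-33-deficient kidneys, with summed intensities of 1843 to 1980 and 1579 to 1786 in controls against 1891 to 3460 and 2481 to 3921 after UUO. S100a8 rose by 1.54 and 2.58, from 8.72 and 8.27 in WT controls and from 8.09 and 7.12 in IL-33-deficient controls. After UUO it lay between 8.71 and 10.47 in WT and between 9.42 and 10.74 in IL-33-deficient kidneys. The granule genes Mpo, Camp and Ltf were not called, and Mmp9 was called higher in IL-33-deficient kidneys alone. Of 17 genes that induce or follow NF-kappaB, 6 rose in WT and 12 in IL-33-deficient kidneys, among them Nfkbiz by 1.50 and 1.80 and Icam1 by 1.29 and 1.48. Of the 4 B cell, 5 dendritic cell and 3 endothelial markers none was called, and of 5 NK cell markers 1 fell in WT kidneys. Pan-leukocyte markers rose in 1 of 4 in WT and 3 of 4 in IL-33-deficient kidneys, and fibroblast and pericyte markers in 4 of 6 and 5 of 6, among them Col1a1 and Acta2. In each genotype 1 of these 6 was lower without a call, at -0.24 in WT and, for Pdgfra, -0.15 in IL-33-deficient kidneys. Markers of the thick limb, distal tubule and collecting duct fell in 4 of 5 and 3 of 5, with medians of -1.08 and -1.42. The part of these cells in the chemokine values was not tested.

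Whether the response to UUO differed between genotypes was tested in the model of all 4 groups. None of the 52 genes passed at an adjusted p under 0.05, as was true of 0% of all genes. At an unadjusted p under 0.05 there were 4 members (7.69%) against 4.74% of all genes. Their log2 responses in IL-33-deficient kidneys minus those in WT were -0.46 for Ccl28, -0.23 for Cxcl15, -0.21 for Cxcr7 and -0.17 for Ccr7, each with an adjusted p of 0.97 in limma. In each of them the mean of the IL-33-deficient controls was above that of the WT controls. Without control 3813 the difference for Cxcl15 was -0.11, and without control 3811 that for Cxcr7 was -0.09.

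The obstructed kidneys of the 2 genotypes were then compared directly over the 12 UUO arrays. None of the 52 genes passed at an adjusted p under 0.05, against 0.00552% of all genes, which is Il33 itself. At an unadjusted p under 0.05 there were 9 members (17.3%) against 10.3% of all genes, and none of the 52 had groups that did not overlap, against 0.756% of all genes. Of the 9, Ccl3, Ccl7, Ccl17, Cxcl4, Cxcl14, Cxcl16 and Cx3cl1 were higher and Cxcl15 and Cxcr7 lower in IL-33-deficient kidneys. The count was 4 in set 1 alone and 9 in set 2 alone. It was between 5 and 14 when each array was left out in turn, 5 being without IL-33-deficient array 3822 and 14 without 3899. The share of all genes at this p was not taken in these runs, so the changes in count cannot be called particular to the members. All 9 kept their direction in each set, which their choice by a p over both sets together favours.

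Ccl3 lay between 6.84 and 6.97 in the 7 WT kidneys. In those lacking IL-33 it was 7.14, 7.04, 7.27, 7.17 and 6.91, of which the last, array 3899, overlapped. The difference was a log2 of 0.20 (standard error 0.05, adjusted p = 0.31 from limma, exact permutation p = 0.0076 over 792 splits, in which the smallest possible is 0.0013). Within set 1 it was 0.18 (exact permutation p = 0.1, the smallest possible) and within set 2 it was 0.21 (exact permutation p = 0.11). For Ccl7 the difference was 0.53 (adjusted p = 0.32, exact permutation p = 0.023), and it was 0.73 in set 1 and 0.39 in set 2. WT array 3819, at 8.11, lay among the IL-33-deficient kidneys.

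For Cxcl4 the difference was 0.43 (adjusted p = 0.32, exact permutation p = 0.016), with 0.71 in set 1 and 0.23 in set 2. For Cxcl14 it was 0.43 (exact permutation p = 0.056), with 0.86 and 0.13, and for Cxcl16 it was 0.29 (exact permutation p = 0.054), with 0.45 and 0.17. In each of these 3 the low values of the WT group were those of arrays 3818 and 3820 of set 1. Cx3cl1 differed by 0.26 (exact permutation p = 0.035), with 0.25 and 0.26 in the sets, and the IL-33-deficient kidneys were close together, between 10.98 and 11.13. Ccl17 differed by 0.10, Cxcl15 by -0.09 and Cxcr7 by -0.09. Cxcl1, which rose furthest, differed by -0.11 (standard error 0.29).

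Markers of cell types were compared between the genotypes after UUO, and none passed at an adjusted p under 0.05. At an unadjusted p under 0.05, which 10.3% of all genes met, 3 of 4 pan-leukocyte markers (Cd52, Coro1a and Laptm5), 6 of 16 monocyte and macrophage markers and 5 of 6 fibroblast and pericyte markers were higher in IL-33-deficient kidneys. The 16 again count Lyz2 and Lyzs separately. Ptprc, which encodes CD45, was at 0.02. Summed pan-leukocyte intensities were 2527 to 3861 in IL-33-deficient and 2091 to 3850 in WT kidneys, and those of fibroblasts and pericytes 4220 to 4728 and 2236 to 3638. Of 9 T cell markers 1 met it and of 5 NK cell markers 2, and none of the 13 neutrophil, 4 B cell and 5 dendritic cell markers did. Of 4 proximal tubule markers 1 was lower. The part of these cells in the differences of the chemokines was not tested.

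**Figure D3:**
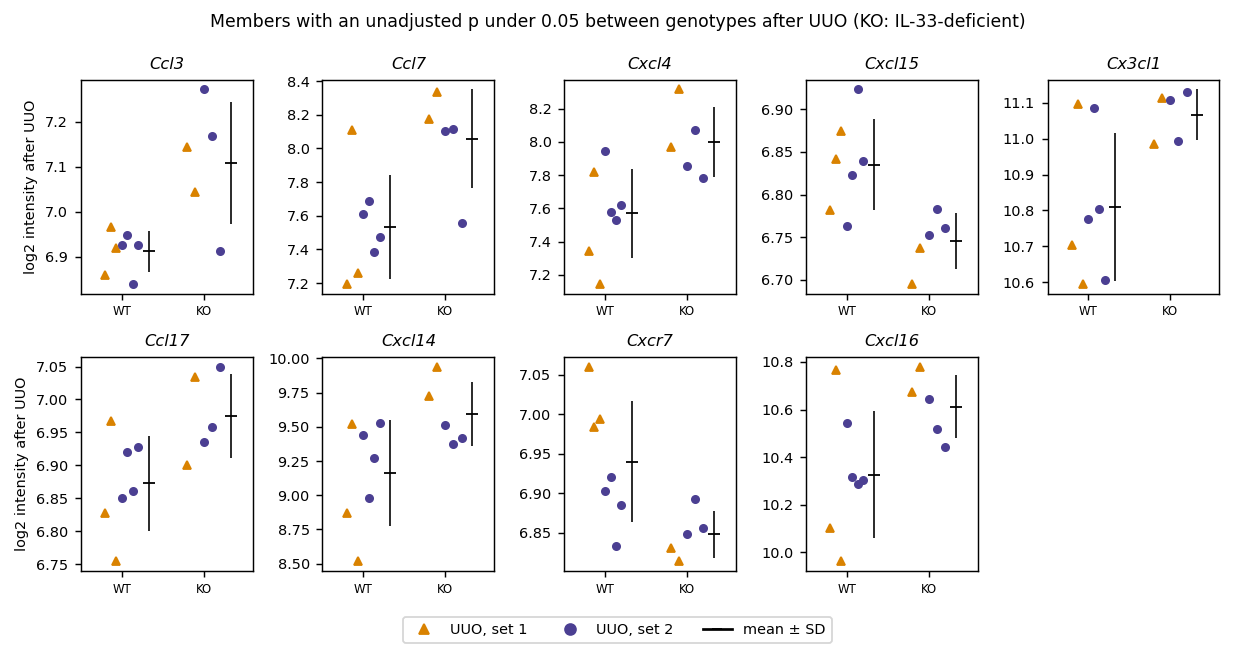
Log2 intensity after UUO in each WT and IL-33-deficient (KO) kidney for the 9 members with an unadjusted p under 0.05, with orange triangles for set 1, purple circles for set 2 and the mean ± SD at the right. The genotypes overlap in every panel, and for Cxcl4, Cxcl14 and Cxcl16 the lowest WT points are arrays 3818 and 3820 of set 1.

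In control kidneys none of the 52 genes differed between the genotypes at an adjusted p under 0.05, as was true of 0% of all genes, and 4 members (7.69%) did so at an unadjusted p under 0.05, against 3.66% of all genes. All 4 were higher in IL-33-deficient controls, namely Ccl28 by 0.32, Ccl6 by 0.21, Ccr7 by 0.15 and Cxcl15 by 0.14. With 2 arrays a group these comparisons borrow their spread from the obstructed kidneys.

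Members that lie near each other on a chromosome are given together, and genes that are not members can lie between them. In the run of Ccl5, Ccl9, Ccl6, Ccl3 and Ccl4, 3 of 5 genes were called in WT and 4 of 5 in IL-33-deficient kidneys, all higher, with log2 fold changes of 0.09 to 1.57 in IL-33-deficient kidneys. Ccl19 and Ccl21a lay at -0.38 and -0.30 there, and Ccl21a was called in WT kidneys. In the run of Ccl2, Ccl7, Ccl11 and Ccl1 the values there ran from -0.01 to 1.20, and in that of Cxcl4, Cxcl3, Cxcl15, Cxcl1 and Cxcl2 from -0.17 to 3.65. Cxcl9 fell while its neighbour Cxcl10 rose. Of Ccl22, Cx3cl1 and Ccl17, Cx3cl1 was called and the others were not. In the run of the 7 receptors Ccr9, Cxcr6, Xcr1, Ccr1, Ccr1l1, Ccr3 and Ccr2 none was called in either genotype. The same was true of the pairs Ccl26 with Ccl24 and Cx3cr1 with Ccr8.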

How the data were processed

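Kidney RNA was labelled and hybridized to BeadChips, and the labels name BeadStudio 2. Per the methods the arrays were imported with beadarray, and the authors deposited 1 linear intensity per gene for 18132 genes on 16 arrays; background correction, normalization and the rule that joins probes are not given in the sources used here. No detection p-values were used. After quantile normalization, log2 values were fitted in R 4.3.3 with limma 3.58.1 (lmFit, eBayes), and p-values of each contrast were adjusted by Benjamini and Hochberg's procedure over every gene. Response, difference in response and control contrasts came from a model of all 16 arrays and the genotype after UUO from the 12 UUO arrays. Single members were tested by two-sided exact permutation over the arrays by which they had been picked, so these p-values add no separate support. Fits were tested on simulated data. The labels do not say that arrays are separate animals, so p-values measure the spread between arrays, whose number limits the precision.

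Members, gene lists and tests were chosen with earlier results of these data known. Genes named were members called in a UUO contrast or with an unadjusted p under 0.05 in a genotype contrast, their ligands or receptors, and called members of marker and pathway lists; uncalled members are named with their class. Alternatives were background subtraction, other normalizations, a variance trend, array weights, a filter on dim genes, each set alone, the set as a term, 2 weak arrays left out, the methods' threshold and leaving out each array. Promoter windows were RefSeq's, and tables were drawn up in Python 3.11.15 with pandas 2.3.3, numpy 2.4.6 and matplotlib 3.10.9. A further gene that the naming rule takes stayed in every fit and is not reported here.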

Additional observations from a re-analysis of the deposited data

Results flagged for a closer look

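Among 46 groups of UUO arrays, 23 members in each genotype, 6 held 1 array far from the others by Dixon's test. By chance this test flags about 1 in 20 independent groups. These groups share the same arrays and are not independent, so the 6 cannot be weighed against that rate. WT array 3819 was the highest for Ccl4 (log2 8.33, the others 7.53 to 7.83), Cxcl9 (7.71, the others 7.04 to 7.24) and Cxcl10 (8.83, the others 7.95 to 8.31). WT array 3820, which also had the lowest Havcr1 after UUO, was the lowest for Ccl5 (7.33, the others 8.49 to 9.15) and Cxcl17 (7.03, the others 7.25 to 7.33). IL-33-deficient array 3899 was the lowest for Ccl4 (7.41, the others 8.12 to 8.38). Over the 11 genes that rose in WT kidneys array 3820 was the lowest for 7 and array 3819 the highest for 7, and over the 13 that rose in IL-33-deficient kidneys array 3899 was the lowest for 10.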

How the results depend on the processing

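The 15 members called in WT and 19 in IL-33-deficient kidneys were 15 to 18 and 18 to 23 under background subtraction, other normalizations, a variance trend, array weights, the brighter genes, set 2 alone and, for WT, without arrays 3818 and 3820. The brighter genes aside, these runs called 13.3% to 23.4% of all genes in WT and 20.1% to 24.6% in IL-33-deficient kidneys. With set 1 alone the counts were 1 and 11, beside 1.04% and 12.5% of all genes. Leaving out each array in turn gave 3 to 15 in WT and 12 to 20 in IL-33-deficient kidneys. The shares of all genes were then 4.46% to 19.7% and 12.6% to 20.9%. No alternative reversed a direction among the named members' calls. For the difference in response, the genotype after UUO and the genotype in controls 0 members were called at an adjusted p under 0.05 in every alternative run. For the genotype after UUO, 4 to 14 had an unadjusted p under 0.05, and the share of all genes at that p was not taken. The methods' threshold called 0 over all 12 UUO arrays and 0 to 2 with each array left out, an alternative chosen after seeing the data, namely Ccl7 and Cxcl4 without WT array 3819 (1.7% of all genes) and Ccl4 and Ccl7 without IL-33-deficient array 3899 (0.518%). The cause of these changes was not tested. Scaling moved the median gene by at most 0.0069. No paired analysis was possible because the array numbers of the labels are unique. The 2 controls a genotype and the dimness of 13 of 17 receptors limit what can be seen.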
